A study of Rattus norvegicus with 2 samples.

Results

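The genes described here are 10 genes of the ERK pathway, called the ERK feedback genes for short. The negative-feedback genes are the MAP kinase phosphatase genes Dusp1, Dusp4, Dusp5 and Dusp6, the Sprouty genes Spry1, Spry2 and Spry4, and the Spred genes Spred1 and Spred2. Etv5, a transcription factor gene that ERK signalling induces, is counted with them but not as an inhibitor. All 10 are the members of this set. The members were chosen by symbol, with earlier results of these data known, and all 10 were found among the 18166 genes measured. Each was represented by 1 array feature that carried its symbol alone. Total RNA came from C6, a cell line from a rat glioma, as 2 single colonies called here colony No.8 and colony No.4, and the colony number was the only label that separated them. Both colonies were described as undifferentiated, both were grown with 10% serum, and the same treatment text, 20 µM CHIR99021 with 100 µM forskolin over 35 days, is attached to both. The labels do not say whether the RNA was taken before or after that treatment. Each colony is 1 clone of 1 line and was measured on 1 whole-transcript array, so every value below is a single measurement, no test, error or p-value can be given, and a difference between the colonies cannot be told apart from one between 2 cultures or 2 hybridizations of the same clone.

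In the ERK pathway, a growth factor receptor activates Ras at the membrane, and Ras starts a relay of the kinases RAF, MEK and ERK. Active ERK enters the nucleus and, through ETS factors and the serum response factor SRF, switches on genes whose products turn the same relay down. The dual-specificity phosphatases remove the activating phosphates from ERK and related kinases, Sprouty and Spred proteins act between the receptor and RAF, and transcripts of this group are widely read as a record of ERK activity in gliomas and other tumours driven by receptor tyrosine kinases. The roles given below are known chiefly from human and mouse cells.

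Of these 10 genes, 2 were at least 2-fold lower in colony No.8 than in colony No.4, Spry4 by 3.66-fold and Dusp5 by 2.86-fold; of all 11069 genes above a floor on low values, 2.57% were. The levels of the other 8 differed by less than 1.5-fold. For both, the 250 bases before the transcription start are printed here, so that the sequence in front of each can be read beside its value. Dusp1 is added because it was the only member whose promoter window held a complete cyclic AMP response element (CRE), the site through which forskolin, a drug that raises cyclic AMP and is named in the labels, can act on genes. The sequences are RefSeq's for the rat assembly GRCr8, read 5′ to 3′ on the strand of the gene, and capitals mark those matches named in the next paragraph that lie before the start. Genes were matched to RefSeq by gene identifier and not by position, since no source used here names the build of the array's annotation.
Dusp5, chr1:262543524-262543773, plus strand: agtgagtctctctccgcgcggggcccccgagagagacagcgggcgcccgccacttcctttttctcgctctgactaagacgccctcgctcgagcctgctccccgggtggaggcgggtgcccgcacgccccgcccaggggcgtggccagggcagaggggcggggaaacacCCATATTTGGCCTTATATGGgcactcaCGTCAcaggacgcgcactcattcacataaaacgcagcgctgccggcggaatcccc
Spry4, chr18:30702547-30702796, minus strand: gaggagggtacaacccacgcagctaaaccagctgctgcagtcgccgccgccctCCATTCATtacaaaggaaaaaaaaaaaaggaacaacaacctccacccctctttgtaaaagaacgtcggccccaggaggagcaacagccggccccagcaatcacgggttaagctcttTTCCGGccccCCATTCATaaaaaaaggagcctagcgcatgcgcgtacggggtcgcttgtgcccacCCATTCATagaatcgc
Dusp1, chr10:17184603-17184852, plus strand: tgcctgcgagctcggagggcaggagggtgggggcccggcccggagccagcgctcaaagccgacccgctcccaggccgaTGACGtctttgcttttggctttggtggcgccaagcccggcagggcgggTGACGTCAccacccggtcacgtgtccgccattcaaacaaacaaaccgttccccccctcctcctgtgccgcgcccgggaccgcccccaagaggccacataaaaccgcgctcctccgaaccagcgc

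The promoter windows searched ran from 250 bases before to 50 bases after the start, and RefSeq's table held one for 9 of the 10 genes, with 2 starts for Spry2. The 9 genes lie on 9 different chromosomes. Both strands were searched for the CRE (TGACGTCA), the shorter CRE core (TGACG, which the full CRE contains), the CArG box bound by SRF, an ETS site (CCGGAA) and the AP-1 site (TGANTCA). The Dusp5 window held 2 CArG boxes directly next to each other, the first starting 82 and the second 72 bases before the start. Of all 33469 rat promoter windows of the same length, 1.64% held a CArG box and 7 held 2 or more. Among windows of genes past the floor, 1.46% held a CArG box. A CRE core followed in Dusp5, 55 bases before the start, and an ETS site lay just after the start, at bases 5 to 10 of the transcript. The Dusp1 window held the full CRE 124 bases before the start and a further core 172 bases before it; 1.83% of all windows held a full CRE and 21.2% a core, and of the 9888 windows of genes past the floor 3.06% and 30.7% did. In Spry4, an ETS site, present in 5004 of all windows and in 27.0% of those of genes past the floor, began 81 bases before the start. After the Spry4 sequence had been read, the 8 bases CCATTCAT were seen to repeat and were searched for as well. They occurred 4 times in the Spry4 window, starting 197, 71 and 16 bases before the start and at base 37 of the transcript. Of all windows, 1.02% held them at least once and 1 window, that of Spry4, held them 3 times or more. The 8 bases were picked because they repeat in Spry4, so these shares are no measure of how unusual the repeat is. Spry2 held a CRE core and an ETS site in the first of its windows, Spred2 held a CRE core, and the windows of Dusp6, Spry1, Spred1 and Etv5 held none of these letters. No member window held the AP-1 site, found in 7.33% of all windows and in 4.98% of those of genes past the floor. At such low shares its absence from so few windows says little. A match describes the sequence and is no evidence that a factor binds there.

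**Figure D1:**
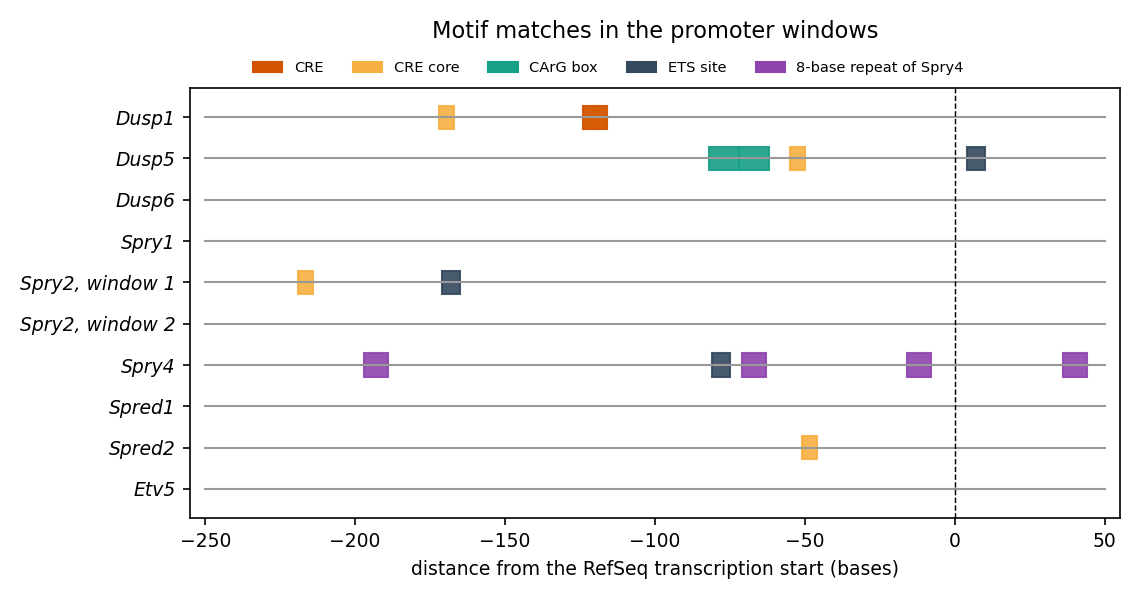
Motif matches in the promoter windows of the 9 ERK feedback genes with a RefSeq window, drawn by distance from the transcription start in bases; each line is 1 window and each coloured box 1 match, and the dashed line is the start. The 2 CArG boxes of Dusp5 adjoin, and the 4 copies of the 8-base repeat in Spry4 lie between 197 bases before the start and base 44 of the transcript.

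The deposited values were used as log2 levels. Levels of different genes come from different probes and are not compared with each other; what is compared is the difference between colonies, No.8 minus No.4, in which 1 unit is 2-fold. A gene was past the floor when it reached 4.33, the median of all values, in at least 1 colony, and all 10 members did, among 11069 genes that did. As a stricter guide to background, the 99th percentile of 1184 olfactory receptor genes, whose transcripts belong to the nasal epithelium, was 5.67, and all 20 member values were above it. The lowest was that of Spry4 in No.8, at 5.84, so the depth of that low value is the least certain. Across the 11069 genes past the floor, a 2-fold difference or more was found for 5.47%, with 2.57% lower and 2.91% higher in No.8. Of the 10 members, 2 were at least 2-fold lower in No.8 and 0 at least 2-fold higher. The median difference over the 10 was -0.15, against 0.04 over all genes past the floor, and without Spry4 and Dusp5 it was -0.06.

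**Figure D2:**
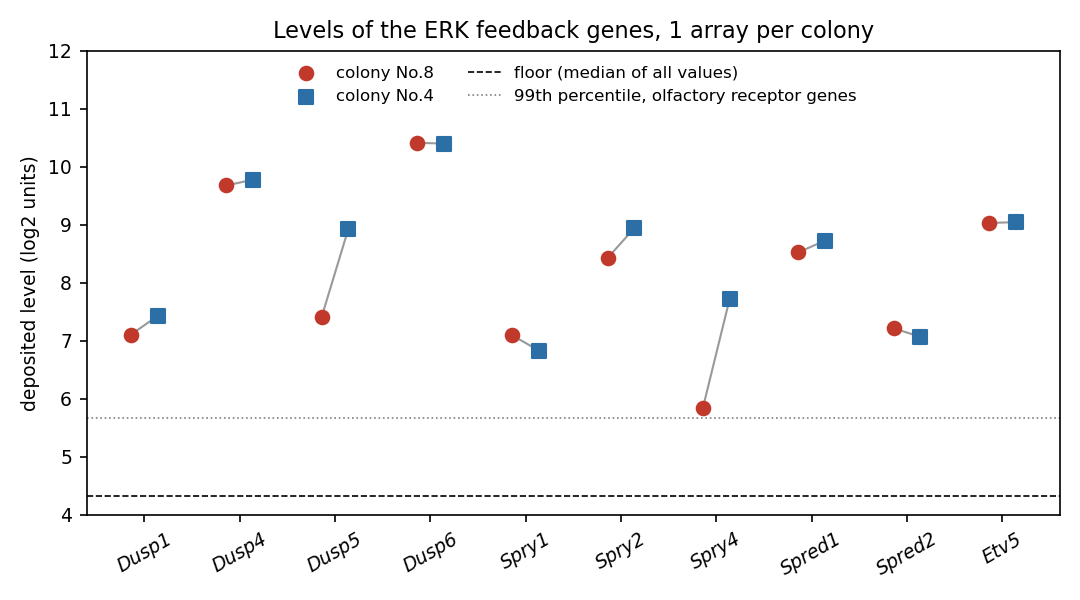
Deposited level, in log2 units, of the 10 ERK feedback genes in colony No.8 (circles) and colony No.4 (squares), 1 array each; the dashed line is the floor and the dotted line the 99th percentile of olfactory receptor genes. Spry4 and Dusp5 are the 2 genes with a steep line between the colonies, and all 20 values lie above the dotted line.

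The 4 MAP kinase phosphatase genes split by 1.53 log2 units between the lowest and the highest difference. Dusp5, which encodes a nuclear phosphatase specific for ERK, was at 7.41 in colony No.8 and at 8.92 in colony No.4, a difference of -1.52 (2.86-fold lower in No.8). Only 88 of the 11069 genes past the floor, 0.795%, had a more negative difference. Among the 1000 genes nearest to Dusp5 in mean level, 31 were at least 2-fold lower in No.8 and 14 had a difference as low as that of Dusp5. Dusp6, which encodes a cytoplasmic phosphatase specific for ERK, stood at the other end, at 10.41 in No.8 against 10.40 in No.4. The Dusp6 difference of 0.01 was among the smallest of all: 97.2% of the genes past the floor had a larger one in absolute size. The sign of the Dusp6 difference turned when differences were centred on the median of all genes (-0.03), so no direction is given.

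Dusp4 and Dusp1 lay between these ends. Dusp4, whose product is a nuclear phosphatase of ERK and JNK, was at 9.68 in No.8 and 9.78 in No.4 (difference -0.10). Dusp1, an immediate early gene whose product acts on p38, JNK and ERK in the nucleus, was at 7.11 in No.8 and 7.43 in No.4 (difference -0.32, 1.25-fold lower in No.8). Of the genes past the floor, 41.7% differed by more than Dusp1 in absolute size.

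The Sprouty genes spread furthest, over 2.13 log2 units, and in both directions. Spry4, which encodes an inhibitor of the relay from growth factor receptors to RAF, was at 5.84 in colony No.8 and at 7.71 in colony No.4. The difference of -1.87 (3.66-fold lower in No.8) was the lowest of the 10 members in the deposited values, and 44 of the 11069 genes past the floor, 0.398%, had a lower one. Of the 1000 genes nearest in mean level, 32 were at least 2-fold lower in No.8 and 6 had a difference as low as that of Spry4. With an offset of 64 added on the linear scale, Spry4 was 2.26-fold lower in No.8 (difference -1.17) and Dusp5 2.35-fold lower (-1.23), so that the order of these genes turned. Spry2, whose product binds the adaptor GRB2 and the ubiquitin ligase CBL, was at 8.43 in No.8 and 8.94 in No.4. That difference of -0.52 (1.43-fold lower in No.8) was the third most negative of the 10, with 9.79% of genes past the floor below it. Spry1, a close relative with a similar inhibitory role, was at 7.09 in No.8 and 6.83 in No.4, a difference of 0.26 (1.20-fold higher in No.8) and the most positive of the 10. Of the genes past the floor, 50.4% differed by more than Spry1 in absolute size. The fourth family member, Spry3, was below the floor in both colonies, at 2.92 in No.8 and 3.37 in No.4.

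The Spred genes, whose products carry neurofibromin, the protein that switches Ras off, to the membrane, differed little. Spred1 was at 8.52 in No.8 and 8.73 in No.4 (difference -0.20, 1.15-fold lower in No.8). Spred2 was at 7.22 in No.8 and 7.07 in No.4 (difference 0.15, 1.11-fold higher in No.8). Both lay inside the middle 50% of all genes past the floor, which ran from -0.22 to 0.30. Spred3, the other family member, was at 5.62 in No.8 and 6.15 in No.4 (difference -0.52), with the No.8 value below 5.67. Nf1, the neurofibromin gene, named after its values were seen, was at 7.52 in No.8 and 8.36 in No.4 (difference -0.85, 1.80-fold lower in No.8).

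Etv5, an ETS factor of the PEA3 group and a target gene of FGF and ERK signalling, was nearly level, at 9.03 in No.8 against 9.05 in No.4. The Etv5 difference of -0.02 turned positive (0.01) after quantile normalization, and 96.3% of genes past the floor differed by more in absolute size. The other 2 PEA3 genes had lower levels in No.8. Etv1 was at 7.45 in No.8 and 8.40 in No.4 (difference -0.95, 1.93-fold lower in No.8). Etv4 was at 6.62 in No.8 and 6.96 in No.4 (difference -0.34). In all, 7 of the 10 members had a lower level in No.8 and 3 a higher one, counting Etv5 and Dusp6, whose signs are not settled. Over all genes past the floor 45.5% were lower in No.8.

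**Figure D3:**
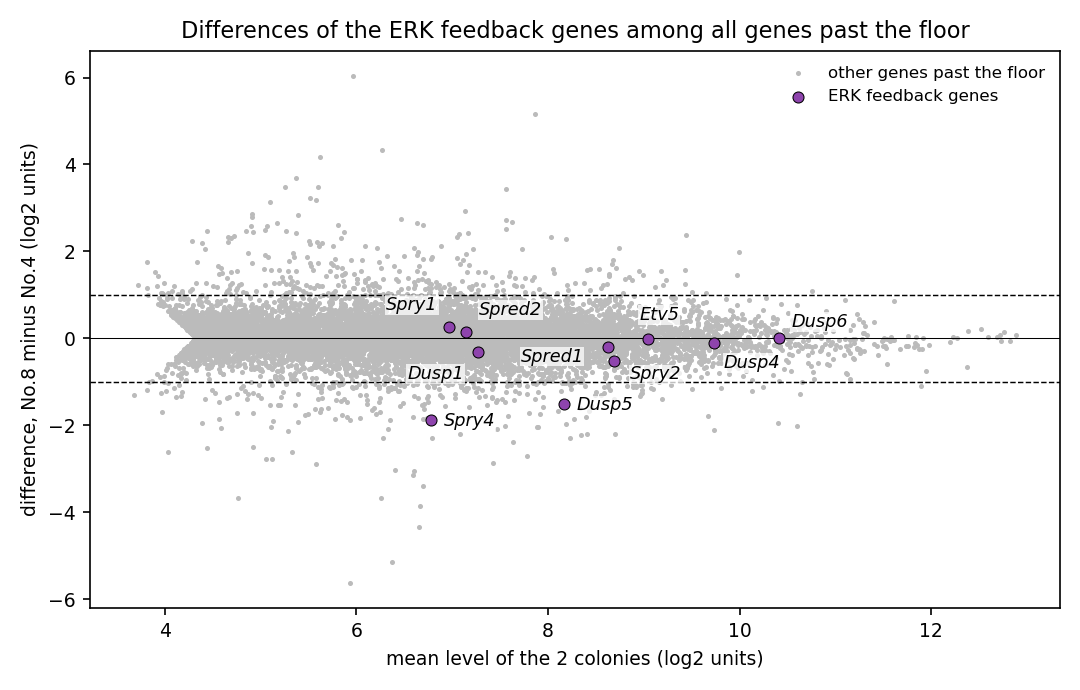
Difference between the colonies, No.8 minus No.4, against the mean level, both in log2 units, for the 11069 genes past the floor (grey) and the 10 ERK feedback genes (purple); dashed lines mark 2-fold. Spry4 and Dusp5 lie below the lower line at -1.87 and -1.52, and the other 8 lie between -0.52 and 0.26.

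The rest of the pathway was described with 6 lists holding 142 measured genes. Among the Ras and ERK cascade components, 30 genes were analysed here. In the list, 21 members were higher and 9 lower in No.8, with a median difference of 0.11 against 0.03 over all genes measured, of which 52.2% were higher in No.8. Of the 30, all past the floor, 2 were at least 2-fold lower in No.8 and 0 at least 2-fold higher. The shares over all genes past the floor were 2.57% and 2.91%, or 5.47% in either direction. Ksr1, the gene of a scaffold that holds RAF, MEK and ERK together, was at 4.02 in No.8 against 6.64 in No.4. The No.8 value lay below the floor, and counted from the floor Ksr1 was at least 4.97-fold lower in No.8; counted from 5.67 it was at least 1.96-fold lower. Rps6ka2, which encodes a kinase that ERK activates, was at 4.22 in No.8 and 5.44 in No.4, both under 5.67. The next members were Rras, a Ras relative (7.50 in No.8 and 8.32 in No.4), and the ETS factor gene Elk3 (8.66 in No.8 and 9.25 in No.4).

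Of the other MAP kinase phosphatase genes, 14 of 16 were measured, with 8 higher and 5 lower in No.8 and a median difference of 0.05. Of the 11 past the floor, only Dusp10 was at least 2-fold apart, against 5.47% of all genes past the floor. Dusp10, whose product acts on p38 and JNK, was at 8.91 in No.8 against 10.08 in No.4 (2.26-fold lower in No.8). Dusp16, a phosphatase of JNK and p38, lay in the opposite direction at 7.11 in No.8 against 6.30 in No.4 (1.75-fold higher in No.8). Dusp7, a cytoplasmic ERK phosphatase related to Dusp6, was at 8.40 in No.8 and 8.76 in No.4. Dusp19 was at 5.90 in No.8 and 5.22 in No.4, and Ptpn7 at 4.997 in No.8 and 4.44 in No.4. Dusp9 was at 4.52 in No.8 and 4.43 in No.4, and Dusp2 had the same value, 4.25, in both colonies. The levels of Ptpn7, Dusp9 and Dusp2 were under 5.67 in both colonies and cannot be told from background here.

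Other inhibitors of Ras and ERK signalling had 23 measured members, of which 20 were past the floor. Of these 20, 4 were at least 2-fold apart, against 5.47% of all genes past the floor. These were 3 at least 2-fold lower and 1 at least 2-fold higher in No.8. Of the 23, 9 were higher and 13 lower in No.8, with a median difference of -0.13. Errfi1, a feedback inhibitor of the EGF receptor, was at 8.78 in No.8 against 10.56 in No.4 (3.44-fold lower in No.8). Rgs2, an inhibitor of G protein signalling that cyclic AMP also induces, was at 6.54 in No.8 against 8.56 in No.4 (4.06-fold lower in No.8). Lrig3, a membrane protein gene of the LRIG family, was at 6.54 in No.8 against 7.63 in No.4 (2.14-fold lower in No.8). Rasal2, which encodes a Ras GTPase-activating protein, was at 7.41 in No.8 against 6.07 in No.4 (2.54-fold higher in No.8).

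Other transcripts that ERK induces, apart from Etv5 and the listed inhibitors, were mostly lower in No.8. Of 30 measured, 19 were lower and 10 higher, with a median difference of -0.26. Of all genes measured, 44.3% were lower in No.8. Of the 26 past the floor, 2 were at least 2-fold lower and 1 at least 2-fold higher in No.8. The shares over all genes past the floor were 2.57% and 2.91%. Fosl1, which encodes the AP-1 subunit FRA1, was at 8.49 in No.8 against 9.88 in No.4 (2.62-fold lower in No.8). Maff, a small MAF factor gene, was at 6.22 in No.8 against 7.56 in No.4 (2.54-fold lower in No.8). Zfp36, whose product breaks down messenger RNAs with AU-rich ends, was at 7.54 in No.8 against 6.45 in No.4 (2.13-fold higher in No.8). The immediate early gene Egr1 was at 10.54 in No.8 and 10.75 in No.4, and the cyclin D1 gene Ccnd1 at 10.16 in No.8 against 10.91 in No.4. The list held both directions among the AP-1 genes, since Fos, named after its values were seen, was at 8.93 in No.8 and 8.15 in No.4.

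Upstream, 25 receptor tyrosine kinase genes were measured, 13 higher and 11 lower in No.8, with a median difference of 0.04. Only 19 were past the floor, and there the direction turned: 8 were higher and 11 lower, with a median of -0.10. Of these 19, 2 were at least 2-fold higher and 1 at least 2-fold lower in No.8. Over all genes past the floor, 45.5% were lower in No.8, 2.91% at least 2-fold higher and 2.57% at least 2-fold lower. Ntrk2, the receptor of the neurotrophin BDNF, was at 5.89 in No.8 against 7.52 in No.4 (3.08-fold lower in No.8). Pdgfrb, a receptor of platelet-derived growth factor, was at 7.55 in No.8 against 6.48 in No.4 (2.10-fold higher in No.8), and Tek at 5.97 in No.8 and 4.84 in No.4. Counted from 5.67, Tek differed by 1.23-fold. Erbb3 was at 8.66 in No.8 against 9.66 in No.4 (1.99-fold lower in No.8). The p38 and JNK cascade, the parallel relays that Dusp1, Dusp10 and Dusp16 also restrain, had 12 members higher and 9 lower in No.8 of 22 measured, with a median of 0.01. Of the 18 past the floor, only Mapk12 was at least 2-fold apart, against 5.47% of all genes past the floor. Mapk12, a p38 kinase gene, was at 6.73 in No.8 against 5.65 in No.4 (2.11-fold higher in No.8). The scaffold gene Mapk8ip3 was at 6.80 in No.8 and 7.78 in No.4, Map2k6 at 5.86 in No.8 and 6.55 in No.4, and Map3k7 at 8.03 in No.8 and 7.54 in No.4.

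**Figure D4:**
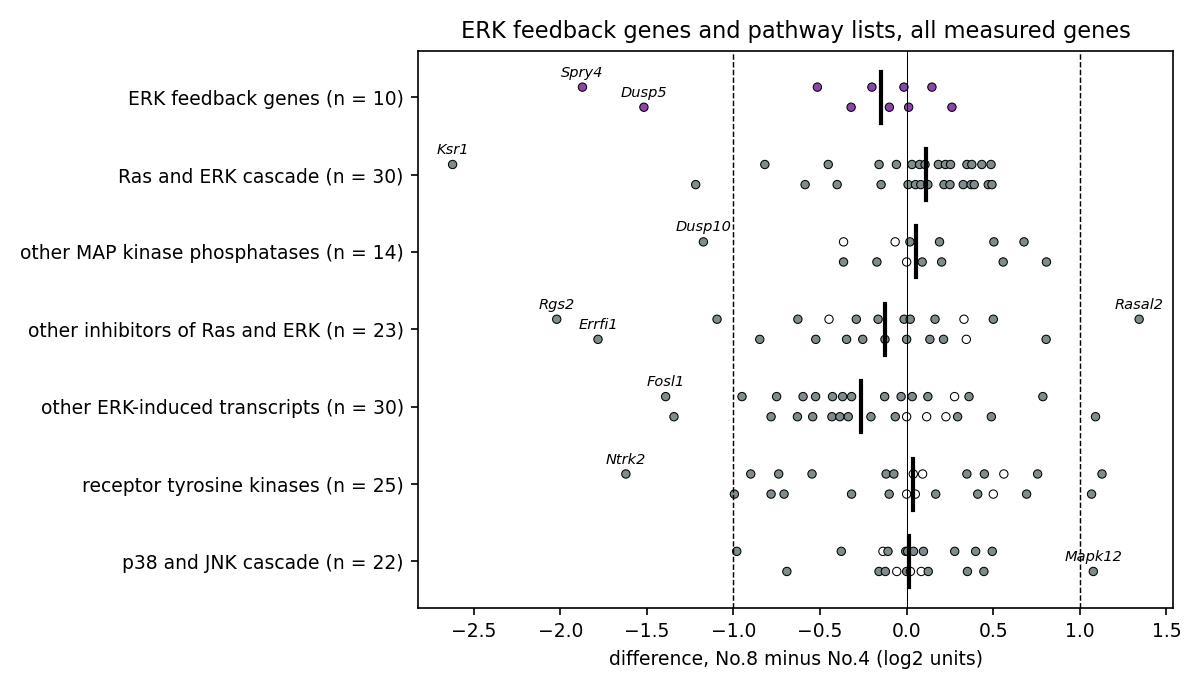
Difference between the colonies, No.8 minus No.4 in log2 units, for the 10 ERK feedback genes (purple) and the 6 pathway lists (grey, or white for genes below the floor in both colonies), with n the genes measured; each point is 1 gene, black bars are medians and dashed lines mark 2-fold. The medians run from -0.26 for the other ERK-induced transcripts to 0.11 for the Ras and ERK cascade.

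The labelled cell type was set against fixed markers. Of 7 glioma and astrocyte markers, 6 were past the floor and 4 above 5.67 in both colonies, with Vim at 12.60 in No.8 and 12.57 in No.4, S100b at 8.46 in No.8 and 8.24 in No.4, and Sox2 at 8.44 in No.8 and 9.08 in No.4. Gfap, the defining filament gene of astrocytes, was at 5.17 in No.8 and 4.11 in No.4, both under 5.67, and Slc1a3 was below the floor in both. Of 18 measured markers of neurons, microglia, endothelium, smooth muscle, pericytes and fibroblasts, 5 were past the floor and 2 above 5.67 in both colonies. These were Pdgfrb and Col1a1, with Col1a1 at 10.64 in No.8 and 8.25 in No.4, while neither colony reached the floor for the fibroblast markers Dcn and Lum. Olig2, a glial lineage factor gene, was at 4.22 in No.8 against 6.36 in No.4. The No.8 value lay below the floor, so the size of that difference is uncertain. The part of these markers' differences in those of Spry4 and Dusp5 was not tested, and in bulk RNA fewer cells with a transcript and less of it per cell cannot be told apart.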

How the data were processed

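Total RNA of 2 C6 colonies, 1 array each, was labelled with biotin as sense cDNA using a whole-transcript GeneChip kit, per the labels' protocols. The authors deposited 1 log2 value for each of 36685 features and colony; the sources used here do not give the software, background correction, normalization or summarization. Base 2 was inferred from the highest value, 13.3, which is above what a natural or base-10 log of a 16-bit scanner signal can reach. The quartiles of both arrays nearly matched (medians 4.31 in No.8 and 4.34 in No.4), so no further scaling was applied. Arrays, 1 per colony, limit the precision, and neither probe signals nor detection calls were analysed.

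Features were named through the platform annotation: 18511 had 1 gene symbol, 575 several and 17599 none, and only the first kind was used. The identifiers of 18394 of the 18511 were found in RefSeq's gene table of assembly GRCr8, all 10 members included. For the 291 genes with 2 or more features the one with the highest mean level was taken. The difference was No.8 minus No.4, and a gene past the floor was counted when it differed by 1 or more. Named were all members, in each list every gene past the floor at least 2-fold apart and then the largest differences up to 4 names, and some fixed relatives; Nf1 and Fos were added after their values were seen. Members and lists were chosen with earlier results of these data known. Olfactory receptor genes were taken as those with an Or or Olr symbol other than Olr1. Promoter windows and their motifs came from RefSeq's table. Alternatives were 3 scalings, the mean over features, levels raised to the floor, an offset of 64 on the linear scale, 1.5-fold, and 2 other floors; levels raised to 5.67 were an addition made with the data in view. The counting step was tested on simulated data and quantile normalization on a small made-up example. The other scalings were not tested in this way. Python 3.11.15 with numpy 2.4.6, pandas 2.3.3, scipy 1.17.1 and statsmodels 0.14.6 was used.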

Additional observations from a re-analysis of the deposited data

How the results depend on the processing

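Of the 10 alternatives, 4 changed the members' differences (3 scalings and the offset); under these 4 Spry4 and Dusp5 stayed at least 2-fold lower in No.8 and no other member reached 2-fold, and at 1.5-fold no further member was counted. The other 6 leave the members' differences as they are. The 1.5-fold setting and the 2 other floors act only on counts. The mean over features and the raised levels change nothing here, since each gene has 1 feature and all 20 values lie above 5.67. A difference was taken to have moved when it changed by more than 0.1 and a count when it changed by more than 1.5 times. Of 219 recomputed values, 195 had not moved. The 219 include member differences that a setting could not change, so this share does not measure how stable the members are. With an offset of 64 on the linear scale, which shrinks dim genes most, the difference of Spry4 was -1.17 and that of Dusp5 -1.23, and 80 of all genes were at least 2-fold lower in No.8 in place of 284. Over the scalings and background settings, the median of the 10 members ran from -0.19 to -0.13. The signs of Dusp6 (-0.03 to 0.03) and Etv5 (-0.05 to 0.01) were not settled.

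The lists depended more on the settings. At 1.5-fold, 4 cascade genes, 9 other ERK-induced transcripts, 3 other phosphatase genes, 7 other inhibitors, 3 p38 and JNK genes and 10 receptor genes were apart, in place of 2, 3, 1, 4, 1 and 3. With the offset these counts were 1 for the cascade, 1 for the ERK-induced transcripts, 2 for the inhibitors, 0 for p38 and JNK and 1 for the receptors. With levels raised to 5.67, 0 cascade genes were apart, and after centring 2 p38 and JNK genes were. The median of the ERK-induced transcripts was -0.16 with the offset and -0.10 with levels raised to 5.67, and that of the other inhibitors was -0.015 with levels raised to the floor or to 5.67; raising sets genes that are dim in both colonies to a difference of 0. No paired analysis was possible because each colony has 1 array. Without detection calls, the distance of a level from background is unknown, which touches Spry4 in No.8 most.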

Other observations

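Of the 18166 genes measured, 635 had the same value to the last deposited digit on both arrays, among them Dusp2. None of the 10 ERK feedback genes was one of them (0 of 10), so the small differences of Dusp6 and Etv5 were not of that kind.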
